A study of Mus musculus with 2 samples.

Results

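The respiratory chain was followed through 100 of the 32285 genes counted in single cells of mouse gingiva, 87 encoded in the nucleus and 13 on mitochondrial DNA. Members were taken by symbol: the Ndufa, Ndufb, Ndufc, Ndufs and Ndufv series, the Sdh genes, the Uqcr series, Cycs, the Cox subunit series and the Atp5 series, without the Ndufaf assembly factors, together with the mt-Nd, mt-Cytb, mt-Co and mt-Atp genes. They fell into 39 nuclear and 7 mitochondrial genes of complex I, 4 nuclear genes of complex II, 8 nuclear and 1 mitochondrial gene of complex III, Cycs, 18 nuclear and 3 mitochondrial genes of complex IV, and 17 nuclear and 2 mitochondrial genes of complex V. Ndufa4 and Ndufa4l2 were counted with complex I by name, although the Ndufa4 protein is now placed in complex IV. All 100 matched a GENCODE M21 gene on GRCm38 by gene identifier, 99 of them protein-coding. The exception was Ndufb1-ps, which that annotation calls a long non-coding RNA at a bidirectional promoter (chromosome 12, 101968090 to 101977068, minus strand).

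The respiratory chain passes electrons from NADH (complex I) or succinate (complex II) through ubiquinone, complex III and cytochrome c to oxygen at complex IV, and complex V uses the resulting proton gradient to make ATP. Complexes I, III, IV and V are built from subunits of both genomes, and complex II from nuclear subunits only. Mature neutrophils are known for few mitochondria and a reliance on glycolysis, whereas macrophages, dendritic cells and lymphocytes carry more.

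Gingival cells came from mice of the genotype CD11CCre-/-;FoxoLL on a mixed C57B6 - FVB background. Their Foxo1 carries loxP sites around exon 2, and with no Cre the Foxo1 protein is described as normal, so these animals served as wild type in both groups. One library held normoglycemic and the other diabetic cells. Type I diabetes was induced with streptozotocin, a toxin of insulin-producing cells, and both labels describe bacterial inflammation for 2 weeks and a further 2 weeks of waiting. Each library pooled 4 mice and had no replicate, so no difference below could be checked against the spread between animals and no p-values were computed. Cells had been sorted as DAPI-, CD31-, Ter-119- and CD45+, with 20% enrichment of CD11c+CD45+ cells, and 10000 were loaded per lane for 3' counting (Chromium v3).

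The normoglycemic matrix held 11280 barcodes with 89339733 UMIs (unique molecular identifiers, 1 per captured transcript) and the diabetic matrix 10496 barcodes with 78220582 UMIs. Filters on UMIs, genes and mitochondrial share kept 10948 and 10260 cells. A cell was called "like" a type when it showed at least 3 of that type's marker genes and at least 2 more than of any other type. This gave 5034 normoglycemic and 4907 diabetic neutrophil-like cells, 1293 and 1177 macrophage-like, 769 and 734 monocyte-like, 449 and 338 conventional dendritic cell-like, 965 and 431 T or NK cell-like, and 286 and 140 B cell-like cells. These 6 classes had at least 100 cells in both libraries and were compared. A further 2024 and 1812 cells matched no class, and 32 barcodes occurred in both libraries. Fibroblast-like cells numbered 18 and 241 and mural or muscle-like cells 5 and 229 despite the CD45+ gate, so those classes were described in the diabetic library only.

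Levels are given as CPM, counts per 1000000, that is, the UMIs of a gene for every 1000000 UMIs of all genes in the class and library. Ratios are diabetic over normoglycemic CPM with exact 95% intervals that cover counting error only. UMI counts from the 3' end are not divided by transcript length. Counts of Ndufb, Cox and Atp5 genes with processed pseudogenes, of mitochondrial genes with nuclear copies, and of the overlapping pairs mt-Atp8 with mt-Atp6 and mt-Nd4l with mt-Nd4, are uncertain to the extent that reads could be split between copies.

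Nuclear members together held 0.338% of UMIs in normoglycemic neutrophil-like cells and between 1.501% and 2.12% in the other 7 classes with at least 20 cells (mast cell-like and conventional dendritic cell-like cells at the ends). The normoglycemic order ran from conventional dendritic cell-like (2.12%) through T or NK cell-like (1.85%), B cell-like (1.61%), monocyte-like (1.58%), macrophage-like (1.55%), mature dendritic cell-like (1.54%) and mast cell-like cells (1.501%) to neutrophil-like cells. Counting intervals overlapped between macrophage-like and mature dendritic cell-like cells, and between the latter and mast cell-like cells. In the diabetic library neutrophil-like cells were again at the bottom (0.526%), and mural or muscle-like cells held the largest nuclear share (2.77%).

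The mitochondrial members had another order. B cell-like cells led the normoglycemic library with 3.55% of their UMIs from the 13 genes, followed by macrophage-like (2.89%) and T or NK cell-like cells (2.88%), whose intervals overlapped. Conventional dendritic cell-like cells, first for nuclear members, held 2.19%, and neutrophil-like cells 0.641%. In the diabetic library the mitochondrial share was 2.33% in B cell-like, 2.39% in macrophage-like, 2.19% in T or NK cell-like, 1.67% in conventional dendritic cell-like and 0.527% in neutrophil-like cells.

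**Figure D1:**
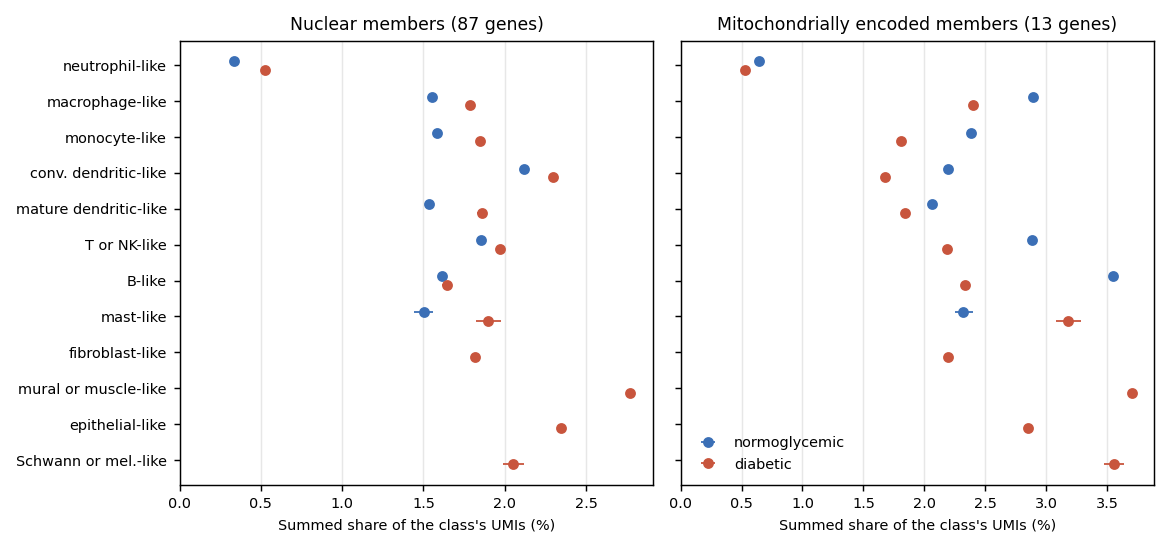
Summed share of UMIs (x axis, percent) of the 87 nuclear members (left) and the 13 mitochondrially encoded members (right) in each class (y axis), for the normoglycemic and the diabetic library; bars are 95% Poisson intervals, smaller than the points in most classes, and classes with under 20 cells in a library are not drawn there. Nuclear shares stand higher and mitochondrial shares lower in the diabetic library in all 6 compared classes, while mast cell-like cells stand higher for both.

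In the 6 compared classes the summed nuclear share was higher, and the summed mitochondrial share lower, in diabetic than in normoglycemic cells, although the nuclear interval of B cell-like cells included 1 and the nuclear medians of female neutrophil-like and monocyte-like cells, given further on, lay below 0. The summed nuclear level was 3380 CPM in normoglycemic and 5264 CPM in diabetic neutrophil-like cells, a ratio of 1.56 (1.54 to 1.57). In macrophage-like cells it was 15532 and 17867 CPM (1.15, 1.14 to 1.16), and in monocyte-like cells 15818 and 18506 CPM (1.17, 1.16 to 1.18). Differences were smaller in conventional dendritic cell-like (1.08) and T or NK cell-like cells (1.06), and in B cell-like cells the interval included 1 (1.02, 0.998 to 1.04).

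The summed mitochondrial level was lower in all 6 classes. It was 6409 CPM in normoglycemic and 5271 CPM in diabetic neutrophil-like cells (0.822, 0.816 to 0.829), 28872 and 23944 CPM in macrophage-like cells (0.829), and 23825 and 18059 CPM in monocyte-like cells (0.758). The ratio was 0.763 in conventional dendritic cell-like cells and 0.760 in T or NK cell-like cells, and it was farthest from 1 in B cell-like cells, where 35469 CPM stood against 23294 CPM (0.657, 0.646 to 0.668).

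The choice of scaling moves all genes of a class together. TMM scaling, which centres most genes on no difference, shifted every log2 ratio by -0.27 in neutrophil-like, 0.11 in T or NK cell-like and 0.19 in B cell-like cells, and by under 0.03 in either direction in the other 3 classes. The median over all genes tested (at least 10 CPM in either library) was 0.20 in neutrophil-like cells, -0.10 in T or NK cell-like and -0.17 in B cell-like cells on the total-UMI scale. Beside these, the nuclear members' median log2 ratio was 0.73 in neutrophil-like, 0.20 in macrophage-like, 0.23 in monocyte-like, 0.13 in conventional dendritic cell-like, 0.12 in T or NK cell-like and 0.05 in B cell-like cells. On the TMM scale the same medians were 0.46, 0.22, 0.21, 0.13, 0.23 and 0.23. The mitochondrial medians were -0.36, -0.35, -0.45, -0.51, -0.50 and -0.72 in the same order of classes, and -0.62, -0.32, -0.48, -0.51, -0.39 and -0.53 on the TMM scale.

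**Figure D2:**
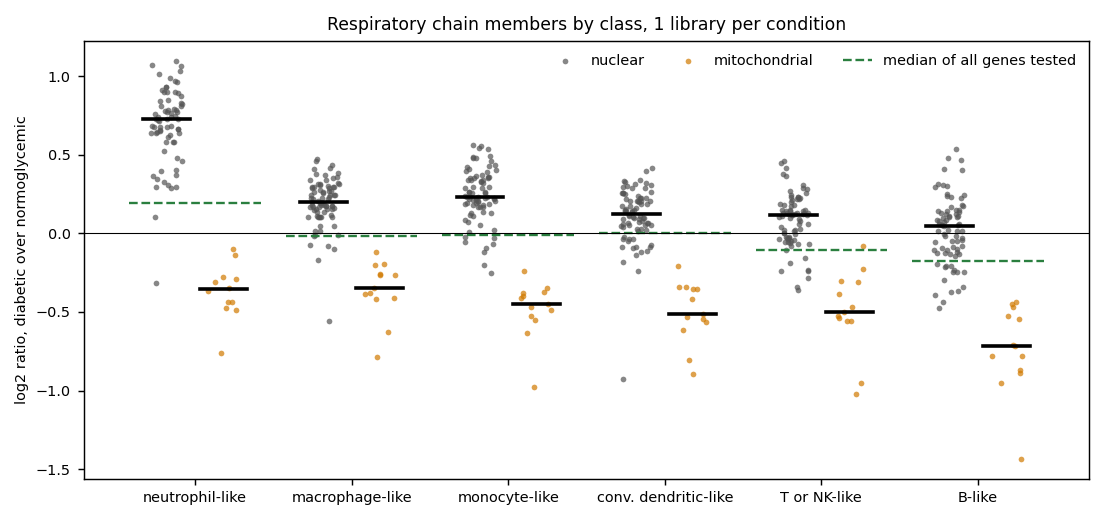
Log2 ratio of diabetic over normoglycemic CPM (y axis) for each member with at least 10 CPM in either library, by class (x axis); grey points are nuclear and orange points mitochondrially encoded members, black bars their medians, and the dashed green line the median over all genes tested in the class. The nuclear median lies above and the mitochondrial median below the all-gene median in each of the 6 classes, and the nuclear points of neutrophil-like cells stand apart at a median of 0.73.

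Among the complexes, the nuclear part of complex III differed most in neutrophil-like cells, at 276 CPM in normoglycemic and 470 CPM in diabetic cells (1.70, 1.65 to 1.76). Complex I (1.57), complex IV (1.58) and complex V (1.53) were close to each other, and complex II, the link to the tricarboxylic acid cycle, stood at 1.48 (1.37 to 1.59). In macrophage-like cells the nuclear parts of complexes I, III, IV and V lay between 1.13 and 1.17, and complex II at 1.06 (1.02 to 1.11). In conventional dendritic cell-like (0.998, 0.940 to 1.06), T or NK cell-like (0.932, 0.841 to 1.03) and B cell-like cells (1.09, 0.903 to 1.32) the interval of complex II included 1. In cells called female, 49 normoglycemic and 233 diabetic, the neutrophil-like log2 ratios of all 5 nuclear complexes lay below 0, at -0.27 for complex I, -0.24 for II, -0.20 for III, -0.029 for IV and -0.31 for V. Whether these few cells are typical of the class was not tested.

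The mitochondrial part of complex I stood lowest of the 4 mitochondrial parts in all 6 classes. Its ratio was 0.740 in neutrophil-like, 0.773 in macrophage-like, 0.685 in monocyte-like, 0.709 in conventional dendritic cell-like, 0.694 in T or NK cell-like and 0.546 in B cell-like cells. The mitochondrial part of complex IV, which forms the catalytic core of cytochrome c oxidase, ran from 0.682 in B cell-like to 0.858 in neutrophil-like cells.

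**Figure D3:**
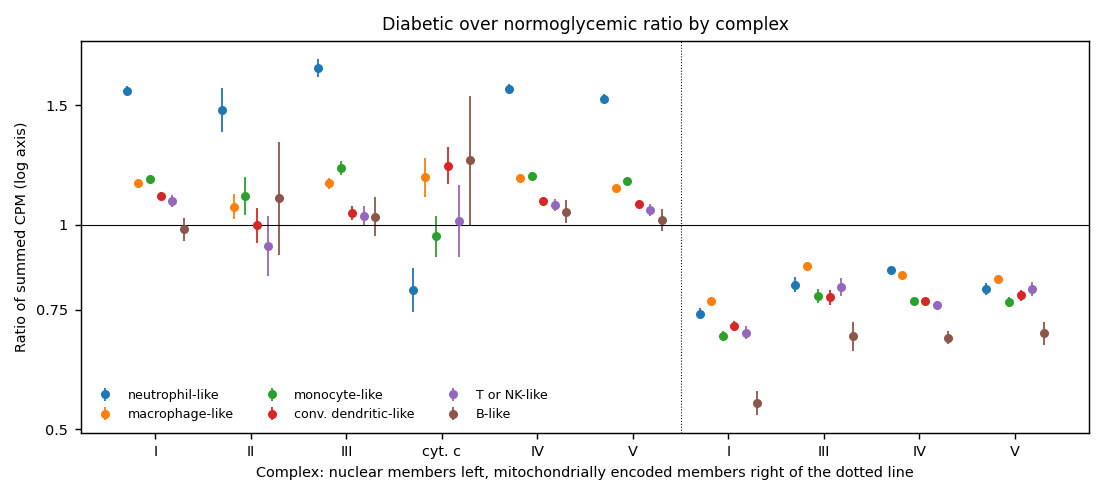
Ratio of summed CPM, diabetic over normoglycemic (y axis, log scale), for the nuclear (left of the dotted line) and mitochondrially encoded (right) members of each complex in the 6 compared classes, with exact 95% intervals of counting error. Neutrophil-like cells lie between 1.48 and 1.70 for nuclear complexes I to V and at 0.802 for cytochrome c over all cells of the class (nuclear complexes I to V lie below 1 in the few cells called female), and every mitochondrial part lies below 1 in every class.

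Ratios above 1 were found for 70 of 71 tested nuclear members in neutrophil-like cells (62.5% of all genes tested), 73 of 81 in macrophage-like (47.1%), 72 of 80 in monocyte-like (49.3%), 64 of 80 in conventional dendritic cell-like (50.3%), 55 of 79 in T or NK cell-like (37.5%) and 44 of 79 in B cell-like cells (37.1%).

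In neutrophil-like cells 71 of the 87 nuclear members reached 10 CPM in either library, and 55 of them stood at least 1.5-fold higher in diabetic cells, where 22% of all 4287 genes tested did so. On the TMM scale the count was 17 of 71 beside 8.07% of all genes. No nuclear member stood 1.5-fold lower on the total-UMI scale (background 12.2%), and 1, Cycs, did on the TMM scale (background 20.7%). Ndufb11, an accessory subunit of the complex I membrane arm encoded on chromosome X (20615326 to 20617619, minus strand), was at 23.8 CPM in normoglycemic and 51.0 CPM in diabetic cells, a ratio of 2.15 (1.94 to 2.38). Ndufa8, another accessory subunit (chromosome 2, 36036326 to 36049406, minus strand), was at 14.2 and 29.8 CPM (2.10, 1.84 to 2.41). Neither carries electrons.

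In the same neutrophil-like cells Ndufb7, another complex I accessory subunit, was at 24.8 and 50.1 CPM (2.02). Ndufa11, a membrane arm subunit, was at 8.26 and 17.3 CPM (2.10, 1.76 to 2.51). It reached the minimum of 10 CPM only in the diabetic cells, where it was higher. Uqcr11, a small subunit of complex III (chromosome 10, 80402997 to 80406830, minus strand), was at 21.6 and 44.2 CPM (2.05, 1.84 to 2.29). Uqcrh, the hinge protein that docks cytochrome c at complex III, was more abundant, at 98.2 and 167 CPM (1.70, 1.61 to 1.79). In complex IV, Cox8a had the highest level, at 321 and 503 CPM (1.57), and Cox5b stood at 74.1 and 138 CPM (1.86). In complex V, Atp5l was at 196 and 327 CPM (1.67) and Atp5g1, 1 of 3 genes for the c subunit of the membrane rotor, at 17.2 and 32.9 CPM (1.91). Atp5a1 at 1.33 (1.19 to 1.47) and Atp5b at 1.27 (1.18 to 1.37), subunits of the ATP-making head, were nearer to 1. Atp5c1, Atp5d and Atp5e, subunits of the central stalk that joins the head to the rotor, had log2 ratios of 0.68, 0.66 and 0.67.

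The exception in neutrophil-like cells was Cycs, cytochrome c itself (chromosome 6, 50562563 to 50566538, minus strand). It was at 74.6 CPM in normoglycemic and 59.8 CPM in diabetic cells, a ratio of 0.802 (0.744 to 0.863), and was the only tested nuclear member with a ratio below 1 in the class as a whole. It differed by neutrophil state (gates described further on): 0.831 (0.695 to 0.991) in granule gate and 0.842 (0.747 to 0.948) in Retnlg-low cells, but 1.03 (0.896 to 1.196) in Retnlg-high and 1.77 (0.898 to 3.71) in interferon gate cells, whose intervals included 1. The class ratio thus lay below the ratio of every state. Normoglycemic Cycs was at 49.7 CPM in Retnlg-high and 101 CPM in granule gate cells, and Retnlg-high cells numbered 1139 normoglycemic and 2719 diabetic. The part of this changed mix in the class ratio of Cycs was not tested. In macrophage-like cells Cycs was at 117 and 138 CPM (1.17, 1.10 to 1.25), in monocyte-like cells at 206 and 198 CPM (0.961, 0.898 to 1.03) and in conventional dendritic cell-like cells at 255 and 312 CPM (1.22), where the log2 ratio was -0.064 among cells with 2000 to 10000 UMIs. T or NK cell-like cells stood at 152 and 154 CPM (1.01) and B cell-like cells at 134 and 167 CPM (1.24, 0.998 to 1.55). Sdha, the flavoprotein of complex II, was the tested nuclear member nearest to 1 in neutrophil-like cells at 14.9 and 16.0 CPM (1.07, 0.921 to 1.25), and it lay below 1 on the TMM scale.

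NRF1, the ETS factor GABP and YY1 are known activators of respiratory chain genes, so the 300 bases around the annotated start of 69 of the 87 nuclear members (RefSeq, GRCm38.p6) were searched on both strands for fixed letters. The NRF1 core GCATGCGC was in 11 of the 69 promoters (15.9%) and in 3.05% of all 27025 genes with a promoter in the table. The ETS letters CCGGAAGT were in 5 (7.25%, beside 4.31%), and the YY1 letters AAGATGGCG in 7 (10.1%, beside 1.64%). The stretches below are shown because Cycs and Ndufa11 share the same NRF1 letters but lay on opposite sides of 1 in neutrophil-like cells as a whole (0.802 and 2.10), and because the complex III genes Uqcr11 and Uqcrh (2.05 and 1.70) hold the ETS letters. The side on which Cycs lay differed between neutrophil states, as given above. Uqcr11 also holds the NRF1 core, nearer its RefSeq start and outside the stretch shown. These stretches were chosen after the values of their genes were seen, and Ndufa11 reached 10 CPM only in the diabetic neutrophil-like cells. Each is 80 bases upstream of both the RefSeq and the GENCODE start, 5′ to 3′ along the gene, with the matched letters (either strand) in capitals. Cycs is chr6:50566570-50566649 (minus strand), Ndufa11 is chr17:56717682-56717761 (plus strand), Uqcr11 is chr10:80406831-80406910 (minus strand) and Uqcrh is chr4:116075072-116075151 (minus strand).
Cycs: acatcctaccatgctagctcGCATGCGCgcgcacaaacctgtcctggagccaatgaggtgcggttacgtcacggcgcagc
Ndufa11: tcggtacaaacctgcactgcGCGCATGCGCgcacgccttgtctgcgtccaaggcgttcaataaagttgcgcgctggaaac
Uqcr11: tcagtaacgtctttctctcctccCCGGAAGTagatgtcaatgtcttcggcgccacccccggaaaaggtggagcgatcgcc
Uqcrh: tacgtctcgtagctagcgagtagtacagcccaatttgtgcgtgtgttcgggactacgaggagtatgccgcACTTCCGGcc
In Ndufa11 the NRF1 core matched on both strands over 10 bases. A match describes letters and was not tested for binding.

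Neutrophil-like cells also differed between the libraries in depth, state and stray transcripts. Their median was 4114.5 UMIs per normoglycemic and 3484 per diabetic cell. Nuclear member UMIs per cell were nevertheless 16.7 and 20.7, and mitochondrial ones 31.6 and 20.8. Macrophage markers (8 genes) summed to 320 and 580 CPM in neutrophil-like cells, beside 23277 and 22934 CPM in macrophage-like cells themselves, and monocyte markers to 266 and 695 CPM; none of these 16 genes was at 0. Among neutrophil-like cells with no UMI of any macrophage or monocyte marker, an alternative added after the data were seen, the nuclear median log2 ratio was 0.65 and the mitochondrial -0.45. Fibroblast markers summed to 4.07 and 63.9 CPM, and their part in the result was not tested.

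The mix of neutrophil states differed as well, and the pattern held within most of them. Cells outside the granule and interferon gates with little Retnlg, a secreted protein of mature neutrophils, numbered 3260 and 1686, those with much Retnlg (at least 5 UMIs per 10000) 1139 and 2719, granule gate cells (Ltf, Camp, Ngp, Lcn2) 589 and 422, and interferon gate cells 46 and 80. The summed nuclear ratio was 1.59 in Retnlg-low, 1.43 in Retnlg-high, 2.08 in granule gate and 2.09 in interferon gate cells. The summed mitochondrial ratio was 0.852, 0.841, 1.11 and 0.883, so granule gate cells stood on the other side of 1 on the total-UMI scale (1.08 to 1.13). Their TMM shift was -0.35 on the log2 scale, larger than that difference. With the normoglycemic states weighted to the diabetic mix, the nuclear median log2 ratio of the class was 0.74 and the mitochondrial -0.28.

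Macrophage-like cells showed smaller nuclear differences, and none of 81 tested nuclear members stood 1.5-fold apart, where 2.45% of all genes tested stood that much higher and 4.11% lower. At 1.2-fold, 29 of 81 stood higher beside 14.8% of all 7518 genes tested. Atp5g1 (chromosome 11, 96068852 to 96075670, minus strand) was at 181 CPM in normoglycemic and 252 CPM in diabetic cells (1.39, 1.32 to 1.46). Cox5b, a zinc-binding subunit of complex IV (chromosome 1, 36691449 to 36693681, plus strand), was at 250.04 and 338 CPM (1.35, 1.29 to 1.41). Ndufa8 was at 76.8 and 106 CPM (1.38) and Atp5j, coupling factor 6 of the complex V stalk, at 225 and 299 CPM (1.33).

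The most abundant members of macrophage-like cells differed less. Cox4i1, the ubiquitous regulatory subunit of complex IV, was at 760 and 847 CPM (1.11) and Cox8a at 606 and 685 CPM (1.13). In complex V, Atp5e was at 558 and 696 CPM (1.25) and Atp5l at 493 and 551 CPM (1.12). Uqcrh (451 and 508 CPM, 1.13) and Uqcrq (240 and 314 CPM, 1.31) led complex III, and Ndufa4 stood at 307 and 370 CPM (1.21). In complex II, Sdhb, the iron-sulfur subunit, was at 89.7 and 97.1 CPM (1.08, 1.004 to 1.17) and Sdha at 82.1 and 76.6 CPM (0.934, 0.859 to 1.01). Ndufb1-ps was at 370 and 349 CPM (0.945, 0.909 to 0.982).

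Monocyte-like cells had 35 of 80 tested nuclear members at least 1.2-fold higher, beside 24.6% of all 6634 genes tested, and none at 1.5-fold (background 6.93%). Atp5g1 was at 171 and 253 CPM (1.48, 1.38 to 1.58) and its sister gene Atp5g2 at 201 and 280.0 CPM (1.40, 1.31 to 1.49). The third c subunit gene, Atp5g3, stood at 167 and 191 CPM (1.15, 1.06 to 1.23), so the genes of 1 protein stood apart by different amounts. Ndufv3, an accessory subunit beside the NADH site, was at 105 and 155 CPM (1.47, 1.35 to 1.60) and Ndufb5 at 93.9 and 137 CPM (1.46, 1.33 to 1.60). Cox7a2l, which joins complexes III and IV into supercomplexes, was at 156 and 210 CPM (1.35, 1.25 to 1.45) in monocyte-like cells but at 352 and 310 CPM (0.881, 0.832 to 0.933) in conventional dendritic cell-like cells.

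Conventional dendritic cell-like cells, which had the largest nuclear share among leukocytes, had 12 of 80 tested nuclear members at least 1.2-fold higher, below the 19.7% of all 6986 genes tested. Cox5b (404 and 539 CPM, 1.33, 1.27 to 1.40) and Atp5g1 (276 and 364 CPM, 1.32, 1.24 to 1.40) led. Several small membrane subunits of complex V were on the lower side: Atp5mpl at 359 and 305 CPM (0.848, 0.800 to 0.898), Atp5k at 294 and 268 CPM (0.911) and Atp5md at 343 and 323 CPM (0.943, 0.890 to 0.998). Cox6b2 was the 1 nuclear member beyond 1.5-fold lower in this class (background 7.09%), at 56.6 and 29.8 CPM (0.526, 0.441 to 0.624). The mix of dendritic cell types differed between the libraries, as described further on for Cox6b2, and its part in the ratios of this class was not tested.

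In T or NK cell-like cells 9 of 79 tested nuclear members stood at least 1.2-fold higher beside 14.7% of all 7586 genes tested, and on the TMM scale 24 of 79 beside 22.9%. In B cell-like cells 9 of 79 stood 1.2-fold higher (background 20.7%) and 7 lower (background 43.8%), and on the TMM scale 33 of 79 higher beside 31.2%. No member of either class met the rule for naming, which required an interval wholly beyond 1.2-fold. Ndufab1, the mitochondrial acyl carrier protein that is also a complex I subunit, was at 78.8 and 107 CPM in T or NK cell-like cells (1.36, 1.17 to 1.58) and at 69.9 and 101 CPM in B cell-like cells (1.45, 1.08 to 1.93). Ndufb11, 2.15-fold in neutrophil-like cells, was at 232 and 171 CPM in B cell-like cells (0.738, 0.603 to 0.898).

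Across classes, 71 nuclear members were tested in all 6, and 27 of them had a ratio above 1 in each, beside 9.67% of the 3466 genes tested in all 6. On the TMM scale the count was 48 of the 71 members, beside 448 of the 3466 genes. Ndufab1, Ndufb9 and Cox8a had an interval above 1 in all 6 classes on the total-UMI scale. In neutrophil-like cells, however, Ndufab1 reached the minimum of 10 CPM only in the diabetic library, where it was higher. The share of all genes with such intervals was not counted. Sdha had a ratio below 1 in 5 classes, and so did Ndufa3, Ndufb1-ps and Atp5k, while Atp5md and Atp5mpl had one in 4. The interval lay below 1 in 5 classes for Ndufb1-ps, in 4 for Atp5md, in 2 each for Ndufa3, Atp5k and Atp5mpl, and in 0 for Sdha. On the TMM scale Atp5k and Atp5mpl each stood above 1 in 3 classes. All of these genes were above 1 in neutrophil-like cells, with Ndufa3 at 1.44 there and at 0.790 (0.711 to 0.876) in T or NK cell-like cells.

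All 12 mitochondrially encoded members tested in all 6 classes had a ratio below 1 in each, beside 16.1% of the 3466 genes. For 11 of them the interval lay below 1 throughout, a rule for which the share of all genes was not counted. At least 1.2-fold lower were 10 of 12 tested in neutrophil-like cells (22.9% of all genes tested), 8 of 13 in macrophage-like (19.1%), 12 of 13 in monocyte-like (25.9%), 12 of 13 in conventional dendritic cell-like (22.6%), 11 of 13 in T or NK cell-like (32.1%) and 13 of 13 in B cell-like cells (43.8%). The exception to the intervals was mt-Nd5 in T or NK cell-like cells, at 337 and 318 CPM (0.945, 0.869 to 1.03), which stood above 1 on the TMM scale. The least abundant, mt-Nd6, is the only member read from the light strand (mitochondrial positions 13552 to 14070, minus strand). It was at 4.15 and 4.03 CPM in neutrophil-like cells (0.972, 0.715 to 1.32), under the minimum level, and at 24.3 and 15.7 CPM in macrophage-like cells (0.645, 0.543 to 0.766).

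Among the abundant mitochondrial members, mt-Nd3, a complex I membrane subunit (positions 9459 to 9806), had the lowest ratio in all 6 classes. It was at 105 and 62.0 CPM in neutrophil-like cells (0.589, 0.550 to 0.631), 603 and 350 CPM in macrophage-like cells (0.580, 0.560 to 0.601) and 401 and 204 CPM in monocyte-like cells (0.507). Conventional dendritic cell-like cells stood at 411 and 221 CPM (0.537), T or NK cell-like cells at 550.3 and 270.3 CPM (0.491) and B cell-like cells at 643 and 237 CPM (0.369, 0.315 to 0.431).

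At the other end, mt-Co2, which takes electrons from cytochrome c (positions 7013 to 7696), was at 969 and 880.3 CPM in neutrophil-like cells (0.908, 0.891 to 0.926) and at 4488 and 4128 CPM in macrophage-like cells (0.920, 0.910 to 0.930). In B cell-like cells it was at 5246 and 3842 CPM (0.732, 0.703 to 0.763). mt-Co1, the catalytic subunit beside it, was at 1293 and 1208 CPM in neutrophil-like cells (0.934), whereas mt-Co3 of the same complex was at 1258 and 931 CPM (0.740, 0.727 to 0.754). The mt-Co3 interval thus lay wholly below that of mt-Co2, whereas mt-Co1 and mt-Co2 were close to each other. mt-Cytb, the mitochondrial subunit of complex III, ran from 0.685 in B cell-like to 0.869 in macrophage-like cells, and mt-Atp6 from 0.694 to 0.834 in the same classes.

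**Figure D4:**
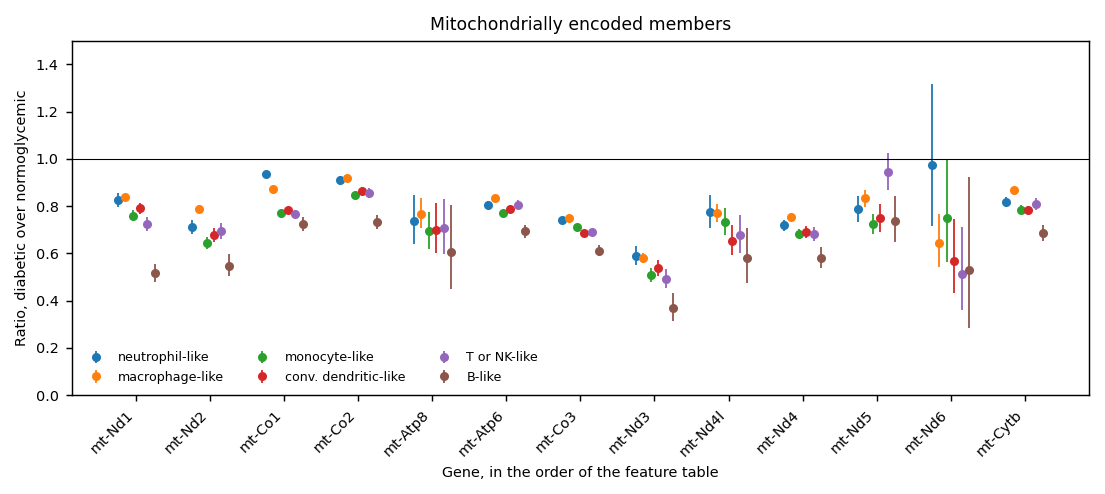
Ratio of diabetic over normoglycemic CPM (y axis) of the 13 mitochondrially encoded members (x axis) in the 6 compared classes, with exact 95% intervals of counting error. mt-Nd3 lies between 0.369 and 0.589, mt-Co2 between 0.732 and 0.920, and B cell-like cells lie lowest for most genes.

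The ratio of mitochondrial to nuclear member UMIs does not depend on the class total. It was 1.90 in normoglycemic and 1.001 in diabetic neutrophil-like cells (0.528 of the normoglycemic value, 0.522 to 0.534), 1.86 and 1.34 in macrophage-like cells (0.721) and 1.51 and 0.976 in monocyte-like cells (0.648). Conventional dendritic cell-like cells stood at 1.03 and 0.729 (0.705), T or NK cell-like cells at 1.55 and 1.11 (0.715) and B cell-like cells at 2.20 and 1.42 (0.644). The diabetic value was thus below the normoglycemic one in every compared class.

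Single cells spread widely around these values. In neutrophil-like cells the median cell had 1.46 (quartiles 0.692 and 3) in the normoglycemic and 0.680 (0.333 and 1.41) in the diabetic library, so the quartile ranges overlapped. In B cell-like cells the median was 2.54 (1.85 and 3.39) and 1.58 (1.11 and 2.10). Within the neutrophil states the diabetic value was 0.533 of the normoglycemic one in granule gate, 0.424 in interferon gate, 0.587 in Retnlg-high and 0.535 in Retnlg-low cells. Mast cell-like cells, 40 and 41 in number, were the class with both libraries at 20 cells or more that stood the other way, at 1.55 and 1.67 (1.08, 1.01 to 1.16).

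Cells were called male or female from Xist and 4 Y-linked genes, and the balance of calls differed between classes and libraries. In macrophage-like cells it was close, with 538 male and 442 female normoglycemic and 426 and 472 diabetic cells. Cells called female were 49 normoglycemic and 233 diabetic neutrophil-like cells, and 46 and 190 monocyte-like cells, while those called male were 2649 and 1850, and 522 and 349. The nuclear median log2 ratio was 0.77 in male and -0.24 in female neutrophil-like cells, and 0.22 in male and -0.12 in female monocyte-like cells. In macrophage-like cells it was 0.29 in male and 0.12 in female cells. Ndufb11 and Uqcr11 in neutrophil-like cells and Atp5g2 in monocyte-like cells also stood on the lower side in female cells, with log2 ratios of -0.41, -0.70 and -0.33. The mitochondrial median was below 0 in both sexes in all 6 classes, from -0.26 in male macrophage-like to -0.97 in female neutrophil-like cells. The mitochondrial to nuclear log2 ratio was likewise below 0 in both sexes in all 6 classes. Calling a cell female needs no Y-linked UMI, and the part of depth in these calls was not tested. The nuclear median log2 ratio of macrophage-like over neutrophil-like cells was 0.76 in normoglycemic cells called female and 2.66 in all cells. In the diabetic library it was 1.17 and 2.17. Whether the neutrophil-like cells called female are typical of their class was not tested.

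Macrophage-like and neutrophil-like cells were set against each other within each library. The median log2 ratio of macrophage-like over neutrophil-like cells was 2.66 over 81 nuclear members in the normoglycemic and 2.17 over 79 in the diabetic library, beside 2.13 and 1.89 over all genes tested. All 81 and 76 of 79 stood at least 1.5-fold higher in macrophage-like cells, where 76.6% and 74.6% of all genes tested did. The class total of neutrophil-like cells is weighted by few genes, with S100a8 at 5.82% and S100a9 at 8.18% of normoglycemic UMIs. TMM scaling shifted these log2 ratios by -2.001 and -1.75, which left nuclear medians of 0.66 and 0.43, and 43 and 32 members at least 1.5-fold higher (39.9% and 39.4% of all genes). The mitochondrial medians were 2.17 and 2.16 on the total-UMI scale and 0.17 and 0.41 on the TMM scale, and with DESeq2 size factors the normoglycemic one was -0.066, on the other side of 0.

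Several subunits have tissue-restricted isoforms, and most were close to absent from leukocytes. Cox4i2, the lung and smooth muscle alternative to Cox4i1 (chromosome 2, 152754173 to 152765037, plus strand), was at 355 CPM in diabetic mural or muscle-like cells (724 UMIs, 229 cells), and its share of the Cox4i pair there was 26.8%. In the 6 compared classes it was at 1.60 CPM or less in either library. Ndufa4l2, a hypoxia-induced relative of Ndufa4 (chromosome 10, 127514967 to 127517154, plus strand), was at 627 CPM in the same diabetic cells, above Ndufa4 at 290 CPM. It was at 57.0 CPM in diabetic epithelial cell-like cells, at 8.13 CPM in diabetic T or NK cell-like cells and at no more than 1.91 CPM in the other compared classes.

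Cox6b2, known as the testis form of Cox6b1 (chromosome 7, 4751792 to 4753094, minus strand), was the restricted isoform with the highest level in compared leukocytes. It made up 9.86% of the Cox6b pair in normoglycemic and 4.98% in diabetic conventional dendritic cell-like cells, and 3.39% and 1.83% in macrophage-like cells. Those dendritic cells were then split by type markers, a split chosen after the values were seen. Cells with Cd209a, Mgl2 or Clec10a and neither Xcr1 nor Clec9a (249 and 128 cells) held 89.1 and 61.9 CPM, and cells with Xcr1 or Clec9a alone (128 and 160) held 16.5 and 11.9 CPM. The mix of these types thus differed between the libraries alongside the Cox6b2 level of the class.

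Cox7a1, the heart and muscle form beside Cox7a2, was at 10.2 and 9.68 CPM in macrophage-like cells (0.951, 0.748 to 1.21) and had 0 UMIs in B cell-like cells. Cox6a2, the muscle form of Cox6a1, was at 4.00 CPM or less in the 6 compared classes. Cox7b2 and Cox8c had 0 UMIs in all of them, and Cox8b no more than 0.151 CPM. In total 6 nuclear members (Cox4i2, Cox6a2, Cox7b2, Cox8b, Cox8c and Ndufa4l2) reached 10 CPM in none of the 6 classes.

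**Figure D5:**
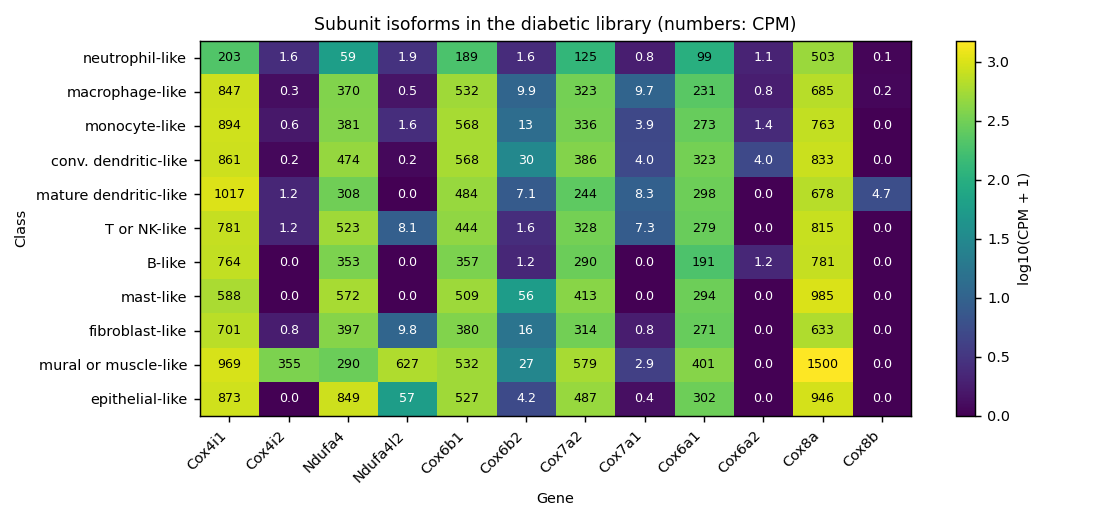
Level of paired subunit isoforms in the diabetic library (numbers: CPM; colour: log10 of CPM + 1) for each class (rows) and gene (columns). Cox4i2 (355 CPM) and Ndufa4l2 (627 CPM) stand out in mural or muscle-like cells, and Cox6b2 reaches 29.8 CPM in conventional dendritic cell-like cells.

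Other nuclear genes of mitochondria were described from lists. Mitochondrial ribosomal proteins (78 genes), which translate the 13 mitochondrial members, had a median log2 ratio of 0.66 over 21 tested in neutrophil-like, 0.31 over 73 in macrophage-like, 0.40 over 66 in monocyte-like, 0.25 over 72 in conventional dendritic cell-like, 0.18 over 71 in T or NK cell-like and 0.16 over 74 in B cell-like cells. Respiratory complex assembly factors (44 genes) stood at 0.44 over 10, 0.17 over 23, 0.28 over 20, 0.16 over 24, 0.19 over 29 and 0.01 over 29. Regulators of mitochondrial biogenesis and of mitochondrial DNA expression (21 genes) stood near 0, at 0.06 over 4, 0.01 over 12, -0.05 over 10, 0.13 over 9, 0.04 over 14 and -0.05 over 13. The nuclear genes of mitochondrial translation therefore lay on the higher side with the nuclear respiratory chain members, while the mitochondrially encoded transcripts lay on the lower side. Fewer mitochondrial transcripts per cell and more of other transcripts cannot be told apart from these shares alone.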

How the data were processed

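The 2 libraries (1 normoglycemic, 1 diabetic, each a pool of 4 mice) were deposited by the authors as filtered UMI count matrices, raw counts per gene and barcode, made with Cell Ranger 4.0.0 per the file headers, while the submitters' processing notes name version 6.0.2 and the mm10 build. Their 4 antibody features were not used. Cells with under 500 UMIs, under 200 genes or over 15% mitochondrial UMIs were left out; that last limit uses members of the set itself. No doublet caller was run, and the lead required by the marker gate leaves out many mixed cells. Raw counts were summed per class and library. With 1 library per condition edgeR's quasi-likelihood test could not be run; ratios have exact conditional binomial intervals (95%), and log2 ratios add 0.5 counts. Genes were tested at 10 CPM in either library. TMM came from edgeR 4.0.16 and size factors from DESeq2 1.42.0 (R 4.3.3); other steps used Python 3.11.15, numpy 2.4.6, pandas 2.3.3 and scipy 1.17.1, checked on simulated counts. Members, lists, gates and tests were chosen with earlier results of these data known. Named genes were up to 4 per direction and class, with an interval wholly beyond 1.2-fold and at least 50 UMIs, the most abundant of each complex in macrophage-like cells, and those described as chosen after their values were seen; several others are described for their role in a complex. Alternatives covered scaling, gate, mitochondrial limit, depth, cell weight, minimum level, sex and neutrophil state.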

Additional observations from a re-analysis of the deposited data

Results flagged for a closer look

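Several nuclear members had intervals wholly on opposite sides of 1 in different classes; in each case the difference was not tested. Cycs, cytochrome c, had a ratio of diabetic over normoglycemic CPM of 0.802 in neutrophil-like cells, 1.17 in macrophage-like cells and 1.22 in conventional dendritic cell-like cells. In the last class its log2 ratio was -0.064 among cells with 2000 to 10000 UMIs. Within the neutrophil states the Cycs ratio was 0.831 in granule gate, 0.842 in Retnlg-low, 1.03 in Retnlg-high and 1.77 in interferon gate cells, with the last 2 intervals including 1. The ratio of the whole neutrophil-like class thus lay below that of every state, and the part of the changed mix of states was not tested. Ndufa3, an accessory subunit of complex I, stood at 1.44 in neutrophil-like, 0.889 in macrophage-like and 0.790 in T or NK cell-like cells. Atp5k, a small membrane subunit of complex V, stood at 1.58 in neutrophil-like and 0.911 in conventional dendritic cell-like cells. Cox7a2l, a supercomplex factor, stood at 1.39 in neutrophil-like, 1.35 in monocyte-like and 0.881 in conventional dendritic cell-like cells. The mix of dendritic cell types differed between the libraries: cells with Cd209a, Mgl2 or Clec10a and neither Xcr1 nor Clec9a numbered 249 normoglycemic and 128 diabetic. Its part in the dendritic values of Cycs, Atp5k and Cox7a2l was not tested.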

How the results depend on the processing

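No paired analysis was possible because there was 1 library per condition, and for the same reason no library could be left out. The mitochondrial medians lay below 0 under 92 of 92 alternatives (-0.97 to -0.25) and the mitochondrial-to-nuclear log2 ratios under 54 of 54 (-1.09 to -0.34), while the nuclear medians lay above 0 under 88 of 92 (-0.24 to 0.77). The 4 nuclear medians below 0 were those of female neutrophil-like, female monocyte-like and male B cell-like cells, given below, and -0.012 in B cell-like cells with a looser gate. Cell number limits the mast cell-like values, and the female neutrophil-like and monocyte-like values rest on few normoglycemic cells. Of the values that answer a comparison, 202 moved by less than their counting interval or spread; those that moved further follow, with the sign changes among named genes and among complex sums at least 1.2-fold apart, and the cause was not tested. On the TMM scale, the nuclear median log2 ratio was 0.46 in neutrophil-like cells, 0.21 in monocyte-like cells, 0.23 in T or NK cell-like cells and 0.23 in B cell-like cells. The mitochondrial median log2 ratio was -0.62 in neutrophil-like cells. The nuclear macrophage-over-neutrophil median was 0.66 in the normoglycemic library and 0.43 in the diabetic library. For mitochondrial members the macrophage-over-neutrophil median was 0.17 in the normoglycemic library and 0.41 in the diabetic library. With DESeq2 size factors, the nuclear median log2 ratio was 0.45 in neutrophil-like cells, 0.20 in monocyte-like cells, 0.23 in T or NK cell-like cells and 0.25 in B cell-like cells. The mitochondrial median log2 ratio was -0.64 in neutrophil-like cells. The nuclear macrophage-over-neutrophil median was 0.42 in the normoglycemic library and 0.22 in the diabetic library. The mitochondrial macrophage-over-neutrophil median was -0.066 in the normoglycemic library and 0.20 in the diabetic library. With a looser gate (2 markers and a lead of 1), the nuclear median log2 ratio was 0.62 in neutrophil-like cells. The mitochondrial median log2 ratio was -0.90 in B cell-like cells. The nuclear macrophage-over-neutrophil median was 2.34 in the normoglycemic library and 1.95 in the diabetic library. For mitochondrial members the macrophage-over-neutrophil median was 1.91 in the normoglycemic library and 1.93 in the diabetic library. The log2 mitochondrial-to-nuclear ratio was -0.84 in neutrophil-like cells, -0.60 in monocyte-like cells, -0.52 in conventional dendritic cell-like cells and -0.69 in B cell-like cells. With a stricter gate (4 markers and a lead of 3), the nuclear median log2 ratio was 0.62 in neutrophil-like cells. There the log2 mitochondrial-to-nuclear ratio was -0.88 in neutrophil-like cells, -0.55 in conventional dendritic cell-like cells, -0.50 in T or NK cell-like cells and -0.70 in B cell-like cells. In cells called female, the nuclear median log2 ratio was -0.24 in neutrophil-like cells, 0.12 in macrophage-like cells, -0.12 in monocyte-like cells, 0.20 in conventional dendritic cell-like cells and 0.18 in B cell-like cells. The mitochondrial median log2 ratio was -0.97 in neutrophil-like cells and -0.66 in monocyte-like cells. The nuclear macrophage-over-neutrophil median was 0.76 in the normoglycemic library and 1.17 in the diabetic library. The mitochondrial macrophage-over-neutrophil median was 0.92 in the normoglycemic library and 1.56 in the diabetic library. For the mitochondrial-to-nuclear ratio, the log2 value was -0.66 in neutrophil-like cells, -0.41 in macrophage-like cells, -0.44 in monocyte-like cells, -0.59 in conventional dendritic cell-like cells, -0.45 in T or NK cell-like cells and -0.78 in B cell-like cells. The log2 ratio of summed CPM was -0.27 for nuclear complex I in neutrophil-like cells, -0.24 for nuclear complex II in neutrophil-like cells, -0.20 for nuclear complex III in neutrophil-like cells, -0.029 for nuclear complex IV in neutrophil-like cells, -0.31 for nuclear complex V in neutrophil-like cells and -0.053 for nuclear complex III in monocyte-like cells. The log2 ratio was -0.41 for Ndufb11 in neutrophil-like cells, -0.70 for Uqcr11 in neutrophil-like cells and -0.33 for Atp5g2 in monocyte-like cells. Among neutrophil-like cells with no macrophage or monocyte marker UMI, chosen after seeing the data, the nuclear median log2 ratio was 0.65 in neutrophil-like cells. In cells called male, the nuclear median log2 ratio was 0.29 in macrophage-like cells, 0.15 in T or NK cell-like cells and -0.15 in B cell-like cells. The mitochondrial median log2 ratio was -0.27 in neutrophil-like cells. The log2 mitochondrial-to-nuclear ratio was -0.89 in neutrophil-like cells, -0.51 in macrophage-like cells, -0.64 in monocyte-like cells, -0.42 in conventional dendritic cell-like cells and -0.34 in B cell-like cells. With every cell weighted equally, the nuclear median log2 ratio was 0.13 in T or NK cell-like cells. The mitochondrial median log2 ratio was -0.51 in neutrophil-like cells. For mitochondrial members the macrophage-over-neutrophil median was 2.54 in the diabetic library. There the log2 mitochondrial-to-nuclear ratio was -1.07 in neutrophil-like cells, -0.41 in macrophage-like cells, -0.60 in monocyte-like cells, -0.53 in T or NK cell-like cells and -0.73 in B cell-like cells. In cells with 2000 to 10000 UMIs, the mitochondrial median log2 ratio was -0.49 in neutrophil-like cells, -0.57 in monocyte-like cells, -0.25 in conventional dendritic cell-like cells and -0.56 in T or NK cell-like cells. The mitochondrial macrophage-over-neutrophil median was 2.70 in the normoglycemic library and 2.83 in the diabetic library. For the mitochondrial-to-nuclear ratio, the log2 value was -1.05 in neutrophil-like cells, -0.42 in macrophage-like cells, -0.71 in monocyte-like cells, -0.35 in conventional dendritic cell-like cells, -0.54 in T or NK cell-like cells and -0.73 in B cell-like cells. The log2 ratio of summed CPM was -0.064 for cytochrome c in conventional dendritic cell-like cells. Without the 5% of cells with most UMIs, the mitochondrial median log2 ratio was -0.55 in neutrophil-like cells. The nuclear macrophage-over-neutrophil median was 3.00 in the normoglycemic library and 2.56 in the diabetic library. For mitochondrial members the macrophage-over-neutrophil median was 2.48 in the diabetic library. The log2 mitochondrial-to-nuclear ratio was -1.09 in neutrophil-like cells, -0.46 in macrophage-like cells, -0.52 in T or NK cell-like cells and -0.73 in B cell-like cells. Without a limit on the mitochondrial share, the mitochondrial macrophage-over-neutrophil median was 2.04 in the diabetic library. There the log2 mitochondrial-to-nuclear ratio was -0.96 in neutrophil-like cells and -0.50 in macrophage-like cells. With that limit at 10%, the log2 mitochondrial-to-nuclear ratio was -0.46 in macrophage-like cells.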

Other observations

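Mast cell-like cells, too few to be compared, held summed nuclear member levels of 15008 CPM in normoglycemic and 18985 CPM in diabetic cells (1.26, 1.195 to 1.34). Their summed mitochondrial level was 23198 and 31795 CPM (1.37, 1.31 to 1.43), on the other side of 1 from the 6 compared classes. Genes of the tricarboxylic acid cycle, which supplies the chain with NADH and succinate, had a median log2 ratio of 0.58 over 7 tested in neutrophil-like, 0.14 over 17 in macrophage-like, 0.28 over 17 in monocyte-like and -0.15 over 17 in B cell-like cells. Inner membrane carriers and uncoupling genes had medians of 0.69 over 15, 0.19 over 19, 0.26 over 18 and 0.08 over 19 in the same classes. Conventional dendritic cell-like and T or NK cell-like cells are not given here for these lists. The tricarboxylic acid cycle median of B cell-like cells lay near the median over all genes tested in that class.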
